A study of Mus musculus with 3 samples.

Results

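The 48 genes described here encode the subunits, activators and assembly factors of the mouse proteasome. They were chosen by symbol alone, as the protein-coding genes of the RefSeq GRCm38 table named Psma, Psmb, Psmc, Psmd, Psme, Psmf or Psmg plus a number, out of 21523 protein-coding genes kept on 20 chromosomes. Their open chromatin was read from a map made by FAIRE-seq, in which DNA that formaldehyde does not hold to protein is recovered and sequenced. The samples were whole uteri of 3 pregnant, untreated, wild-type C57BL/6J females, 6 to 10 weeks old, collected on gestation day 4 after mating with fertile males; the design text of the series gives 4 mice. Pregnancy was established from blastocysts flushed from the uterus. A whole uterus mixes epithelium, stroma, muscle, vessels and immune cells, so a peak can come from any of them, and fewer open cells cannot be told apart from less openness per cell. The map is 1 list of 12413 peaks that names no sample. No value below therefore has an error between mice, depth is unknown, and no difference could be tested over samples; every share, median and order is a description of this list.

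The proteasome is the large protease that breaks down proteins tagged with ubiquitin. Its core particle is a barrel of stacked alpha and beta rings with the proteolytic sites inside, and the regulatory particle on its ends binds, unfolds and feeds in substrates. In immune cells and after interferon, the catalytic beta subunits are replaced by those of the immunoproteasome, which yields peptides for antigen presentation. Dedicated chaperones build both particles and are not part of the finished enzyme, and the transcription factor Nfe2l1 is known to raise proteasome genes together when proteolysis falls short.

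Proteasome genes often had a peak at a gene end, and these peaks were mostly weak. A peak overlapped the 1 kb around an annotated end in 34 of the 48 genes, or 70.8% (95% exact binomial interval 55.9 to 83.0%, counting error only), beside 44.5% of all protein-coding genes. The authors' fold enrichment, the peak signal over a local background, is used only to rank peaks within the list. The strongest gene-end peak of these 34 genes had a median fold of 5.19 and ran from 2.97 to 11.2. All 9576 protein-coding genes with a gene-end peak had a median of 6.33 and a range of 2.21 to 19.97. Of the 34 proteasome genes, 12 lay above that median, 13 lay below the lower quartile of 4.85 and Psmd8 alone lay in the highest 10%. Their peaks were also narrower, with a median width of 375 bp against 469 bp, and lower, with a median pileup at the summit of 44.5 against 61. The local background beneath them, computed from pileup and fold, was close to that of all genes, at a median of 7.79 against 8.64 in units of pileup. Pileup and fold are tied through this background, so the lower pileup is not a trait apart from the lower fold. Among the 6207 peaks with the highest fold, 13 proteasome genes kept a gene-end peak, or 27.1%, beside 26.2% of all protein-coding genes. Their share was thus near the background among the stronger peaks.

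**Figure D1:**
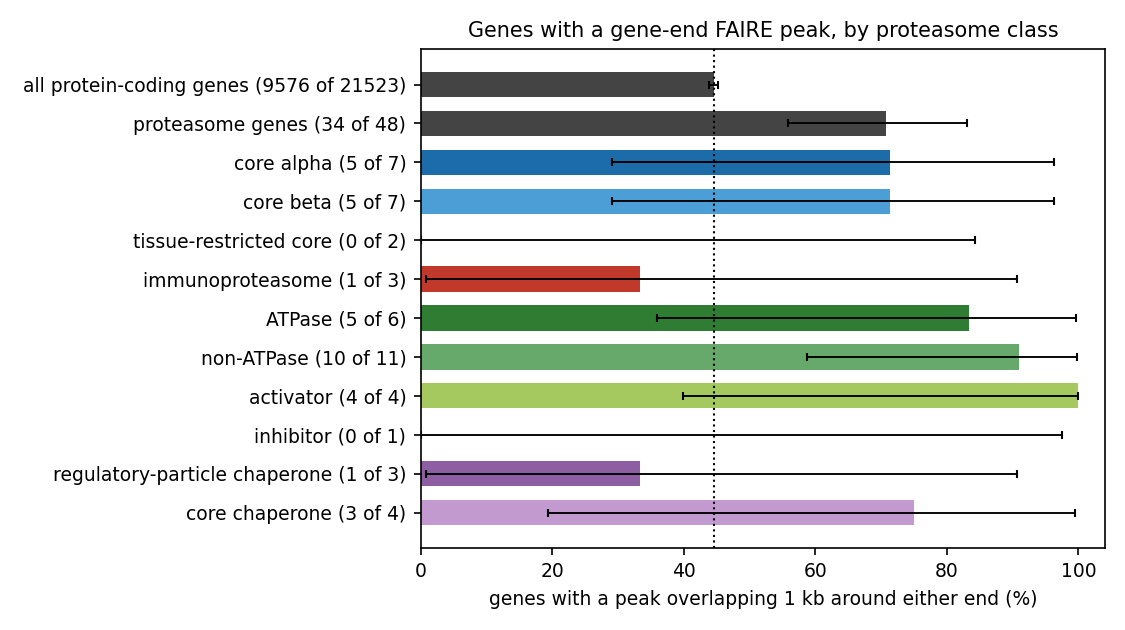
Share of genes with a peak overlapping 1 kb around either annotated end, in percent, for all protein-coding genes, all proteasome genes and each proteasome class, with the counts beside each name. Lines are 95% exact binomial intervals for counting error, and the dotted line marks the 44.5% of all protein-coding genes. The activators stand at 4 of 4 and the non-ATPase subunits at 10 of 11, while the intervals of most classes are wide and cross the dotted line.

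Regulatory and assembly genes had the higher median folds and core genes the lower. Regulatory genes (ATPases, non-ATPase subunits, activators and the inhibitor) had a gene-end peak in 19 of 22, or 86.4% (65.1 to 97.1%), with a median fold of 6.21. The 14 constitutive core genes had one in 10, or 71.4% (41.9 to 91.6%), with a median fold of 4.19. The 7 assembly genes had one in 4, or 57.1% (18.4 to 90.1%), with a median fold of 6.69. The immunoproteasome had 1 of 3, at 4.98-fold, and the pair of core genes restricted to other tissues had none. A single core gene, Psma7, lay above the all-gene median fold of 6.33, compared with 9 of the 19 regulatory genes with a peak. These classes are small, their intervals overlap, and no test between them was made.

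The alpha subunits form the outer rings of the core particle, whose tails close the gate to the inside. Among their peaks the highest was at Psma7, at 7.27-fold with a pileup of 99 (chr2:180041894-180042859). At 966 bp it was also the widest peak of any proteasome gene, and a weaker peak of 3.38-fold lay beyond it. Psma4 followed at 5.62-fold with a pileup of 45, then Psma5 at 4.79-fold with a pileup of 38. Psma2 stood at 4.50-fold with a pileup of 35 and Psma1 at 3.88-fold with a pileup of 31. Apart from Psma7, the alpha genes with a gene-end peak thus lay below the median of all genes. Psma3 and Psma6 had no peak at the ends of their annotated spans, and are taken up below with their listed starts.

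The beta subunits form the inner rings and carry the proteolytic sites, and their peaks were the weakest of any class, with a median fold of 3.37. Psmb4 had the highest, at 4.87-fold with a pileup of 41 (chr3:94886689-94887066). Psmb2 stood at 3.87-fold, Psmb7 at 3.37-fold and Psmb1 at 3.21-fold, with pileups of 30, 26 and 26. Psmb3 had the lowest gene-end peak of all 34 genes, at 2.97-fold (chr11:97703263-97703479), at the 0.324th percentile of genes with such a peak. Its pileup of 36 stood on a local background of 11.5, above the median of 8.64. Psmb5 and Psmb6, which carry the chymotrypsin-like and caspase-like sites, had no gene-end peak. Psmb7, with the trypsin-like site, was the one constitutive catalytic gene that had one.

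The immunoproteasome genes encode the catalytic subunits that replace those of Psmb5, Psmb6 and Psmb7. Psmb9, which replaces Psmb6, had 2 peaks, of 4.98-fold with a pileup of 48 (chr17:34187232-34187522) and 3.53-fold with a pileup of 34 (chr17:34187667-34188057). Both also overlapped the 1 kb around an end of Tap1, the transporter that carries peptides into the endoplasmic reticulum, so they cannot be given to one gene. Psmb8, which replaces Psmb5, had none at its ends. Its nearest peak, of 4.62-fold, lay 3070 bp beyond its end and 45 bp from an end of Tap2, the other transporter chain. Psmb10, which replaces Psmb7, had no peak within 10 kb. Of the 6 genes for catalytic subunits, constitutive and immune, 2 therefore had a gene-end peak (33.3%, beside 44.5% of all protein-coding genes). This grouping was made after the values were seen, and 6 genes are too few to read a difference from. Psmb11, a core subunit of the thymus cortex, and Psma8, one of the testis, had no gene-end peak.

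The ATPases form the ring of the regulatory particle that unfolds substrates, and 5 of the 6 had a gene-end peak. Psmc2 stood at 7.60-fold with a pileup of 78 (chr5:21784964-21785355) and Psmc3 at 7.42-fold with a pileup of 71 (chr2:91053852-91054159). Psmc6 had 5.12-fold, Psmc1 4.37-fold and Psmc4 3.62-fold, with pileups of 40, 34 and 28. The ATPases therefore split into a pair above the all-gene median and 3 genes below it. Psmc5 had no gene-end peak, and its nearest lay 9535 bp beyond its end, 351 bp from an end of Smarcd2, a chromatin remodelling subunit gene.

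The non-ATPase subunits form the base scaffold and the lid, which recognise ubiquitin and remove it, and 10 of 11 had a gene-end peak. Psmd8, a lid subunit, had the highest of all proteasome genes, at 11.2-fold with a pileup of 110 (chr7:29180313-29180791), at the 94.4th percentile of genes with such a peak. Psmd7, the lid partner of the deubiquitinase, reached 8.09-fold with a pileup of 78 (chr8:107588041-107588626). Psmd3, a further lid subunit, reached 7.05-fold, and Psmd2, a scaffold of the base, 6.71-fold, with pileups of 64 and 53. These 4 genes lay above the all-gene median. Psmd11 followed closely at 6.21-fold, and Psmd1, the other large scaffold, had 5.39-fold. Psmd14, the deubiquitinase itself, had 5.26-fold with a pileup of 44, so its peak ranked below that of its partner. Psmd6 had 5.00-fold, Psmd12 4.69-fold and Psmd4, a ubiquitin receptor, 3.61-fold. Psmd13, a lid subunit, had no peak within 10 kb.

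All 4 activators, which cap the core in place of the regulatory particle, had a gene-end peak. Of these, 3 lay above the all-gene median fold of 6.33. Psme4, the large single-chain activator, reached 8.90-fold with a pileup of 77 (chr11:30771576-30771915), at the 80.2nd percentile. Psme1, a subunit of the interferon-induced activator, reached 8.38-fold with a pileup of 75 (chr14:55578236-55578573). Psme3, which forms the nuclear activator, reached 7.55-fold with a pileup of 76. Psme2, the partner of Psme1, stood lower at 4.76-fold with a pileup of 45 (chr14:55591517-55591998). That summit lay 667 bp upstream of the nearest listed start of Psme2 and 55 bp from an end of Rnf31, a ubiquitin ligase gene, so it cannot be given to one gene. Psmf1, the proteasome inhibitor, had none at its annotated ends.

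Assembly genes split the same way among themselves. Psmg1 and Psmg2 encode the chaperone pair that starts the alpha ring. Psmg2 reached 9.23-fold with a pileup of 95, second only to Psmd8 among proteasome genes, and Psmg1 7.71-fold with a pileup of 79 (chr16:95990567-95991136). Of the second pair, Psmg4 had 4.37-fold with a pileup of 34 and Psmg3 had no peak within 10 kb. Among the chaperones of the ATPase ring, Psmd5 had a peak of 5.67-fold with a pileup of 49, and Psmd9 and Psmd10 had none within 10 kb. Psmd10 lies on the X chromosome, where a gene-end peak was listed for 158 of 963 protein-coding genes (16.4%).

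**Figure D2:**
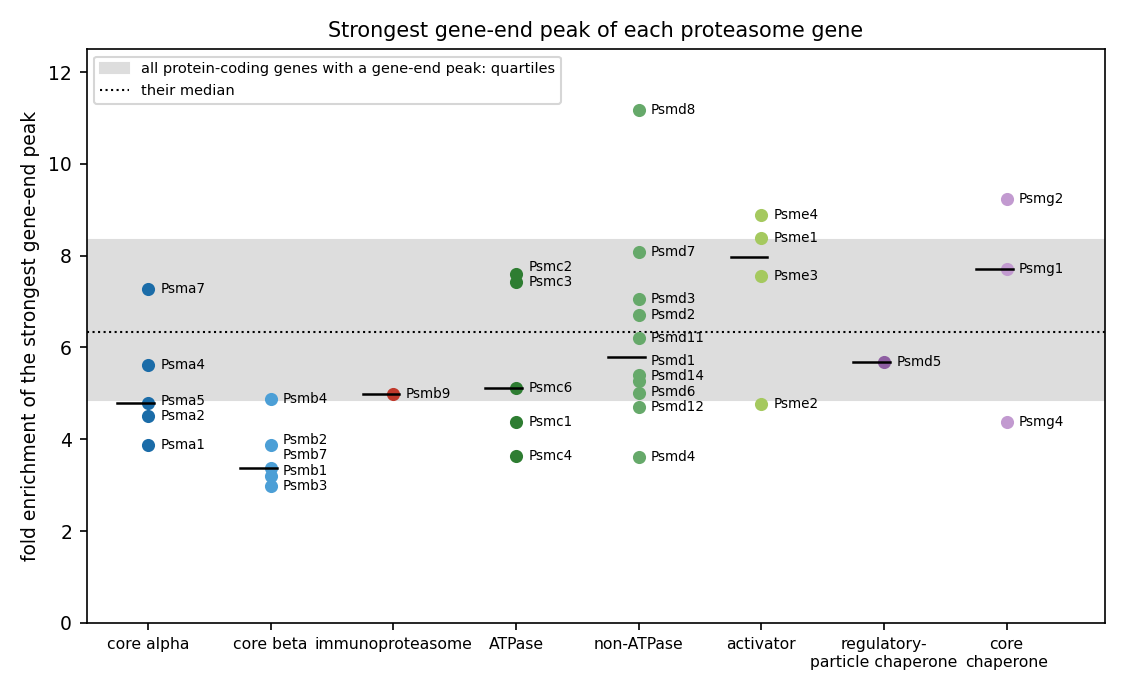
Fold enrichment of the strongest gene-end peak of each of the 34 proteasome genes that had one, by class, on a linear axis from 0; short black lines are class medians, and no error is drawn because the list names no sample. The grey band and dotted line give the quartiles and the median of all 9576 protein-coding genes with a gene-end peak. The core beta genes lie between 2.97 and 4.87 and have the lowest class median, and Psmd8 stands highest at 11.2.

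Where the strand was known, each gene-end peak lay at the start of its gene. The RefSeq promoter table gave a start and a strand for 40 of the 48 genes, 27 of them with a gene-end peak. These 27 genes had 29 gene-end peaks, of which 29 lay at the start, 0 at both ends and 0 at the other end. The strongest peak covered the listed start in 23 of the 27 genes, and its summit was within 300 bp of the start in 26. The median distance was 82 bp, with 12 summits upstream and 15 downstream. The same counts over the gene-end peaks of all protein-coding genes were not made, so these describe the 27 genes only. The farthest downstream was at Psmd14 (267 bp) and the farthest upstream at Psme2 (667 bp). Counting any peak and any listed start, 30 of the 40 genes had a peak within 1 kb of a start and 24 had one over it. Over all 17274 protein-coding genes of the promoter table these counts were 8073 and 6537. In both sets most genes with a peak near a start thus had one over it, so lying over the start was not particular to proteasome genes. For Psmb1, Psmb2, Psmb7, Psmc3, Psmd3, Psmd7 and Psmg2, which also had a gene-end peak, no start or strand was used.

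**Figure D3:**
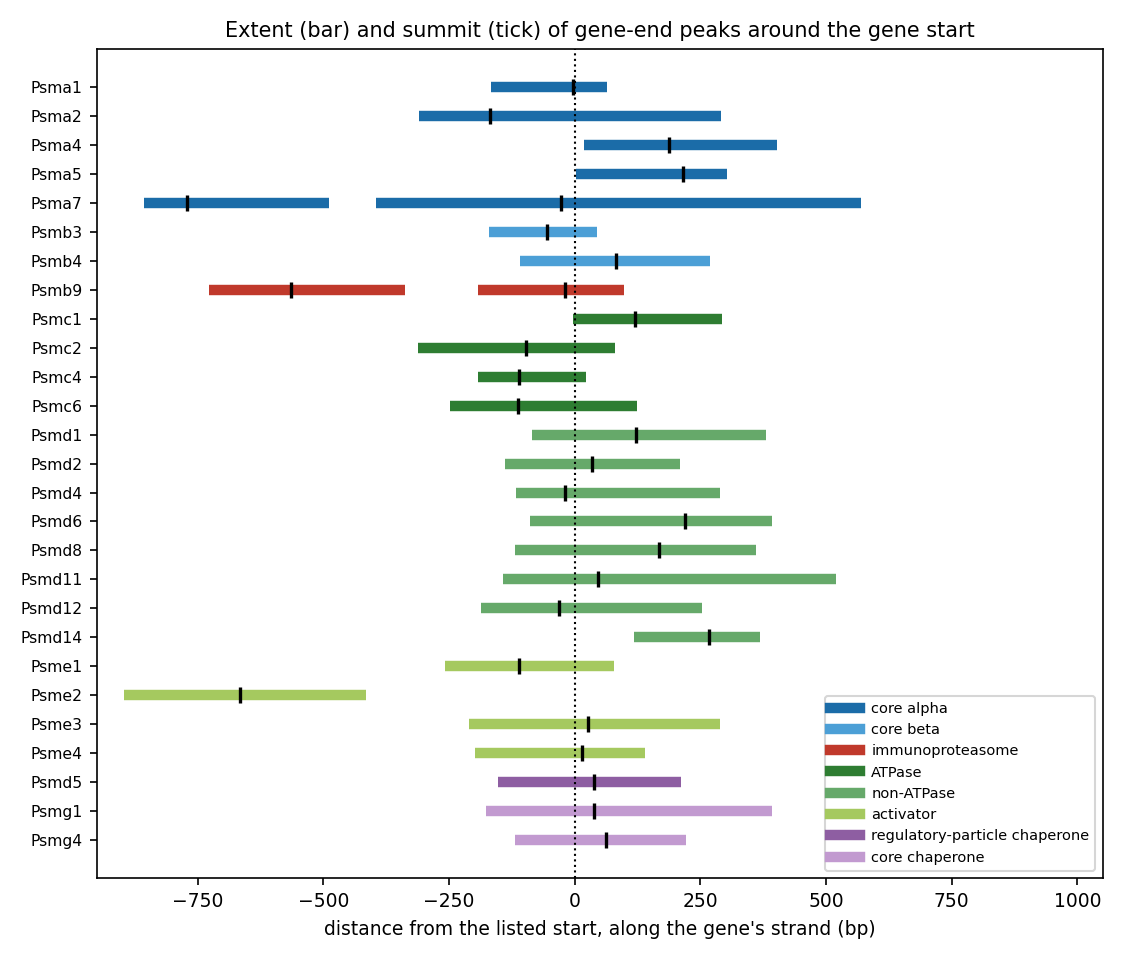
Extent (bars) and summit (black ticks) of the 29 gene-end peaks of the 27 proteasome genes with a listed start, in bp from that start along the strand of the gene. Most bars cross 0; the peak of Psme2 and the second peaks of Psma7 and Psmb9 lie wholly upstream.

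Listed starts inside the annotated span, looked at after the data were seen, added 3 genes. Psma6 had a peak of 8.55-fold (chr12:55398577-55398929) whose summit lay 75 bp upstream of its second listed start, 14528 bp from the nearer end of the span. That is higher than any gene-end peak of the core genes. Psma3 had 5.32-fold (chr12:70974663-70975174), 250 bp downstream of its start, and Psmf1 had 3.75-fold (chr2:151740841-151741292), 387 bp downstream. By listed starts alone, 30 of 40 genes had a peak within 1 kb, beside 46.7% of the 17274 protein-coding genes in the promoter table. By either rule 37 of the 48 genes (77.1%) had a peak, beside 48.1% of all protein-coding genes. The core then stood at 12 of 14 and the regulatory genes at 20 of 22. The 11 genes with none were Psmb5 and Psmb6 of the core, Psma8 and Psmb11, Psmb8 and Psmb10 of the immunoproteasome, Psmc5, Psmd13, Psmd9, Psmd10 and Psmg3. A gene with no peak is one where none was called; how much signal lay there is not known.

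Proteasome genes stood close to other genes. Another protein-coding gene end lay within 5 kb of 38 of the 48 (79.2%), against 46.5% of all protein-coding genes. In that crowded set 26 of 38 (68.4%) had a gene-end peak, beside 56.4% of all such genes. Among the 10 proteasome genes with no neighbour that close, 8 had one, beside 34.2% of such genes. The exact intervals, for counting error only, were 51.3 to 82.5% for the crowded share and 44.4 to 97.5% for the lone share. Neither share was tested against its background, because genes are not replicates. Of the 34 genes with a gene-end peak, 10 (29.4%) shared a peak with another protein-coding gene, close to the 27.3% among all genes with a peak. The shared peaks had a median fold of 6.45, against 5.06 for the 24 genes whose peak touched no other protein-coding gene end. The same medians over all genes were 6.32 and 6.34.

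The partners came from varied pathways. Psma2 shared its peak with Mrpl32, a mitochondrial ribosomal protein gene, Psma7 with Ss18l1, a chromatin remodelling subunit gene, and Psmb3 with Pcgf2, a Polycomb gene. Psmc2 shared with Dnajc2, a chaperone gene of the ribosome, Psmd8 with Catsperg1, a sperm calcium channel gene, and Psmg2 with Cep76, a centrosomal gene. Psmg1 shared with Brwd1, Psma4 with Hykk and AY074887, and Psmb9 and Psme2 with Tap1 and Rnf31 as above. The strongest peaks of both the regulatory and the assembly genes, at Psmd8 and Psmg2, are thus shared, whereas those of Psmd7 and Psme4 are not.

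Other peaks near proteasome genes mostly sat at their neighbours. Away from the ends of every proteasome gene, 21 peaks lay in such a gene or within 10 kb, and 15 of these were within 1 kb of an end of another protein-coding gene. The strongest, of 12.1-fold, lay 2038 bp beyond Psmc6 and 74 bp from an end of Styx, a pseudophosphatase gene. The same share for peaks around all genes was not counted, so 15 of 21 describes these peaks only. Inside genes, besides the peaks of Psma3, Psma6 and Psmf1, Psmc2 had 1 of 3.24-fold, 106 bp downstream of its second listed start. Psmc2 thus had a peak at each of its 2 listed starts. Of the 6 pseudogenes named after proteasome genes, none had a gene-end peak. The share over all pseudogenes was not counted, so this is no result about these 6.

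The promoter sequences were examined because the peaks sat on them. RefSeq promoters (GRCm38.p6) of 300 bases, from 250 before to 50 after the start, were available for 43 starts of the 40 genes. A peak overlapped 29 of these 43 promoters (67.4%), beside 38.4% of the 21045 promoters of protein-coding genes. Median GC content was 57.3% over the 43, 60.3% in the 29 under a peak and 54.0% in the other 14. The median observed over expected CpG ratio was 0.796 under a peak and 0.565 without one. The promoters of all protein-coding genes under a peak had 65.7% and 0.845, so the proteasome promoters under a peak were poorer in GC.

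Of 11 motifs searched, the letters of the ETS motif, CCGGAAG on either strand, were found in 15 of the 43 proteasome promoters (34.9%), against 8.86% of all 32851 promoters, 11.7% of those of protein-coding genes and 20.3% of protein-coding promoters under a peak. Of the 29 proteasome promoters under a peak 13 held them (44.8%), and of the other 14, 2 did. The matches lay mostly in regulatory genes: 11 of 19 with a promoter (Psmc1, Psmc2, Psmc6, Psmd2, Psmd4, Psmd6, Psmd11, Psmd12, Psmd13, Psme3 and Psme4). Of the assembly genes 2 of 6 (Psmg1 and Psmg3) and of the constitutive core 1 of 11 (Psma6, at the start with the peak) had a match. The motif was singled out after its values were seen, and a match of letters is not a bound site.

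The stretches before the starts of Psme4, Psmd6 and Psmg1 are shown because they carry the ETS letters, in capitals, under a peak, and that of Psmd8 because its peak was the strongest. Each gives the 120 bases before the listed start, 5′ to 3′ on the strand of the gene. In Psmd8, which had no ETS match, the capitals mark a GC box (GGGCGG). They are Psme4 at chr11:30771655-30771774 (plus strand), Psmd6 at chr14:14120946-14121065 (minus), Psmg1 at chr16:95990961-95991080 (minus) and Psmd8 at chr7:29180674-29180793 (minus).
Psme4: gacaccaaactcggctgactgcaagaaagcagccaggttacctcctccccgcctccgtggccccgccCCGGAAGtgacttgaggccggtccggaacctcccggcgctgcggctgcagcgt
Psmd6: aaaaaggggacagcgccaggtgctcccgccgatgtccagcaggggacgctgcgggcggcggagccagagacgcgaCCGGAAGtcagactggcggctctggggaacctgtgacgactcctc
Psmg1: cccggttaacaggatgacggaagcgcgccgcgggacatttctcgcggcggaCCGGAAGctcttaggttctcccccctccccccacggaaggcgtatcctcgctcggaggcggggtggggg
Psmd8: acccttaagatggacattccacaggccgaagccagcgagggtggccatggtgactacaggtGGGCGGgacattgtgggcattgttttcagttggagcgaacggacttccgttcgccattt

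The core of the antioxidant response element that Nfe2l1 binds, TGACNNNGC, had a share near the backgrounds. It was in 6 of the 43 proteasome promoters (14.0%), against 12.4% of all promoters and 13.0% of those of protein-coding genes. Under a peak it was in 3 of the 29 (10.3%), against 15.4% of protein-coding promoters under a peak. The 6 genes were Psmb5, Psmb6, Psmc6, Psmd9, Psmd12 and Psme4, and 3 of them (Psmb5, Psmb6 and Psmd9) had no peak. Psmb5 (chr14:54617996-54618115, minus strand) and Psmd9 (chr5:123228070-123228189, plus) are shown over the 120 bases before the start. Psmb6 (chr11:70525337-70525366, plus) is shown over 30 bases from position -20 to 10 about its listed start. Psmb9 (chr17:34187331-34187450, minus), whose peak was shared with Tap1, is added for comparison with its GC box in capitals.
Psmb5: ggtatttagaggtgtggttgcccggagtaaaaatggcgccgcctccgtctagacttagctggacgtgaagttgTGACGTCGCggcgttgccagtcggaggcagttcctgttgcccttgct
Psmd9: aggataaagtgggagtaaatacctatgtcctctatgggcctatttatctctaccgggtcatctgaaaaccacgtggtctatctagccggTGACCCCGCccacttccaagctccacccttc
Psmb6: actaaagagagTGACGGAGCgctttacgac
Psmb9: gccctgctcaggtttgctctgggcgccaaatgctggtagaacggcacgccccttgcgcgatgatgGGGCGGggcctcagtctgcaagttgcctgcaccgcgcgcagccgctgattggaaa

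The core of the interferon-stimulated element (GAAANNGAA) was in 7 of 43 promoters (16.3%), against 8.56% of all and 8.1% of those of protein-coding genes. The 7 genes were Psmb3, Psmb4, Psmc2, Psmd4, Psmd9, Psmg4 and Psme1, the last at 11 to 19 bases after the start. Psme2, the partner of Psme1, had no match. Under a peak the interferon-stimulated core was in 6 of the 29 (20.7%), against 4.84% of protein-coding promoters under a peak. That ratio is larger than for the ETS letters, but 6 promoters are too few to read an order of motifs from. None of the 3 immunoproteasome promoters held the interferon-stimulated core. The nuclear respiratory factor 1 core (GCGCANGCG) was also in 7 of 43 (16.3%), namely Psma2, Psma3, Psma4, Psmc4, Psmc5, Psmd14 and Psmg1. It stood at 6.25% in all promoters, 8.65% in those of protein-coding genes and 17.5% in protein-coding promoters under a peak. GC boxes were in 24 of 43 (55.8%), above the 35.7% of all promoters and the 46.7% of those of protein-coding genes. They were in 58.6% of the proteasome promoters under a peak, below the 78.0% of protein-coding promoters under a peak. The CCAAT box of NF-Y (CCAAT) was in 14 (32.6%, against 37.4% of all promoters). The TATA box (TATAAA) was in 4 (9.30%, against 13.6%) and the E box (CACGTG) in 4 (9.30%, against 7.15%). In promoters of protein-coding genes these motifs stood at 38.5%, 12.7% and 7.91%. Under a peak the TATA box was in 3 of the 29 (10.3%), against 4.17% of protein-coding promoters under a peak, and the E box in 2 (6.90%, against 11.1%). Both thus stood on the other side of this background than of all promoters, but the counts are too few to read an order from. The CCAAT box was in 10 of the 29 (34.5%, against 36.6%). YY1 letters (AAGATGGCG) were in 2 (Psmb6 and Psmc5; 4.65%, against 1.4% of all promoters). Those of NF-kB (GGGANTTTC) were in 1 (Psma6; 2.33%, against 1.11%). The cAMP response element (TGACGTCA) was in 0, against 1.79% of all promoters. In promoters of protein-coding genes YY1, NF-kB and cAMP response letters stood at 1.84%, 1.09% and 2.26%. Under a peak each of these 3 motifs was in 0 of the 29, against 3.52%, 0.706% and 3.74% of protein-coding promoters under a peak. Matches can overlap, as a GC box and the antioxidant core do in Psmd9.

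**Figure D4:**
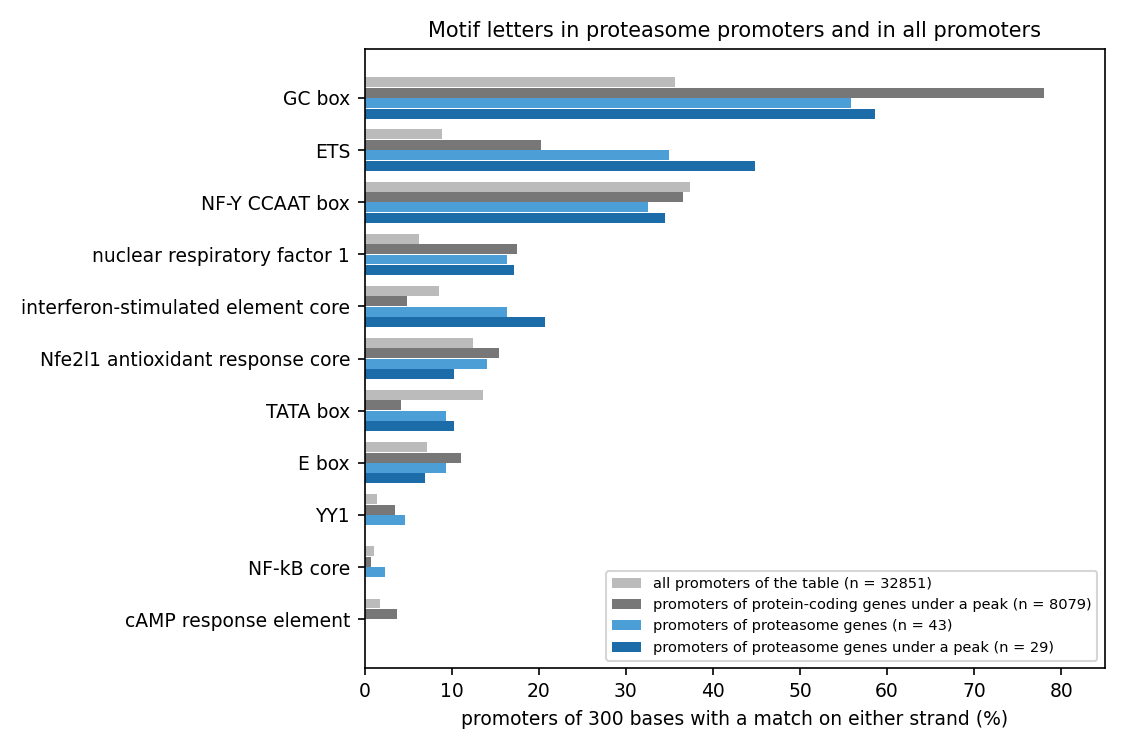
Share of 300-base promoters, in percent, with a match to each of 11 motifs on either strand, for all 32851 promoters of the table, 8079 promoters of protein-coding genes under a peak, 43 promoters of proteasome genes and the 29 of these under a peak. The ETS bars of the proteasome promoters, at 34.9% and 44.8%, exceed both backgrounds, while those of the Nfe2l1 core, at 14.0% and 10.3%, stand beside backgrounds of 12.4% and 15.4%.

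Genes that work with the proteasome had a larger share with gene-end peaks and a higher median fold than the 48 proteasome genes, a difference that was not tested. Of a list of 26 such genes 25 were matched in the gene table, and 23 of these (92.0%, 74.0 to 99.0%) had a gene-end peak, beside 44.5% of all protein-coding genes, with a median fold of 6.69. The highest were at Txnl1, a thioredoxin bound to the regulatory particle (14.5-fold), Ddi2, the protease that activates Nfe2l1 (14.2), Adrm1, a ubiquitin receptor of the regulatory particle (13.2), and Ube3c, a bound ubiquitin ligase (12.3). Each of these exceeded every gene-end peak of the 48 proteasome genes. The transcription factor genes Nfe2l1 and Nfe2l2 had 6.62-fold and 6.12-fold, and Pomp, the maturation factor of the core, had 6.81-fold. Ubb, which encodes ubiquitin chains, had 3.59-fold, and Rps27a, which encodes ubiquitin fused to a ribosomal protein, had 3.50-fold. Ecpas, an adaptor of the proteasome, and Uba1, the ubiquitin-activating enzyme, had no gene-end peak.

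In the antigen processing pathway that the immunoproteasome serves, 10 of 13 genes (76.9%) had a gene-end peak, again beside 44.5%, with a median fold of 6.38. The highest were at Pdia3, a chaperone of peptide loading (11.8-fold, shared with Catsper2), Irf1, an interferon-responsive transcription factor (7.85), Erap1, a peptide-trimming enzyme (7.55), and Tapbp, which bridges transporter and class I molecules (7.44, shared with Rgl2). Tap1 stood at the 4.98-fold of its peak shared with Psmb9. B2m, the class I light chain, and Ciita, the class II transactivator, had none, nor did Nlrc5, the class I transactivator. Of the immunoproteasome genes themselves 1 of 3 had a gene-end peak (33.3%, 0.84 to 90.6%), and Tap1, which shares it, is among the 10. With so few genes and overlapping intervals no difference from the pathway can be read, and none was tested.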

How the data were processed

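FAIRE-seq was done on 3 uterine samples of 1 group, and a single deposited peak list, which names no sample, was analysed. FastQC, Bowtie2, HOMER and MACS2 are named, without versions, in the submitters' processing notes, as is the build GRCm38.p5. Not given in the sources used here: the call threshold, input control or pooling. The authors gave, per the file headers, for each peak a pileup (taken as coverage signal), a fold enrichment (taken as a ratio to local background), and a −log10 q-value. Local background was computed as (pileup + 1) / fold − 1.

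Genes and promoters came from RefSeq tables of GRCm38.p6, a patch release with the same chromosome sequences as GRCm38.p5. Genes starting below 3 Mb (340 with scaffold coordinates) were left out. A peak counted for every gene with an annotated end within 1 kb of it. Only called peaks are listed, and no further filter was applied. Motifs were matched exactly, with N for any base. Python 3.11.15, pandas 2.3.3 and scipy 1.17.1 were used, and the overlap and motif steps were checked on simulated data. Depth is unknown, and no test was made because genes are not replicates.

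All members are named. Of other genes, those sharing a peak and, from each pathway list, up to 4 with the highest fold and 2 with no peak were set by rule; any others were picked with their values known. The members, classes, motifs and lists were chosen with earlier results of these data known. Values of some single genes of the pathway lists are not reported here. Alternatives are given in the closing section.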

Additional observations from a re-analysis of the deposited data

How the results depend on the processing

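The count of proteasome genes with a gene-end peak stayed at 34 with windows of 500 bp, with the summit required inside the window, without the 30 peaks of high local background and with genes on scaffold coordinates kept; the same 34 genes had one each time. Windows of 5 kb gave 38 (beside 51.9% of all protein-coding genes), adding Psmb6, Psmb8, Psmb11 and Psmf1, so the immunoproteasome moved from 1 to 2 and the tissue-restricted core from 0 to 1. Adding peaks at listed starts, a rule chosen after seeing the data, gave 37. The median fold was 5.33 (all genes 6.42) with windows of 5 kb, which also take in peaks of neighbours.

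With the peaks of highest fold, or those of highest −log10 q, 13 of the 48 genes were left, or 27.1%, where 26.2% and 26.0% of all protein-coding genes kept a peak. They were 1 core, 0 immunoproteasome, 10 regulatory and 2 assembly genes, with a median fold of 7.60 in each case (all genes 7.87 and 7.90). Among genes with no other protein-coding gene end within 5 kb, 8 of 10 had a peak (34.2% of all such genes), 2 of 3 in the core and 6 of 6 in the regulatory genes, with a median fold of 4.29 (all such genes 6.41); fewer genes entered, and no immunoproteasome or assembly gene did. No mouse could be left out in turn, since the list names no sample. No paired analysis was possible because there is 1 group.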
